A study of Mus musculus with 4 samples.

Results

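Expression of 10 genes of the Nodal pathway and of the gastrula organizer was read in mouse cells with and without Snai1. They are the ligand genes Nodal and Gdf3, the co-receptor gene Tdgf1, the secreted inhibitor genes Lefty1, Lefty2 and Cer1, and the transcription factor genes Eomes, Gsc, Lhx1 and Mixl1. All probe sets that the platform annotation gives to these genes alone were taken. That made 15 probe sets of 10 genes, out of 34945 probe sets of 18193 genes that name 1 gene each. The 4 groups were Snai1 knockout and control (genotype F/F) embryoid bodies on day 5, and Snai1 knockout and control teratomas at week 6. Embryoid bodies are aggregates of embryonic stem cells that differentiate without added direction, here begun as hanging drops. Teratomas are tumours of mixed tissue, grown here from stem cells injected subcutaneously into hind limbs of nude mice, which were male and 6 weeks old. Nude mice lack a thymus and keep other leukocytes, so host cells can contribute RNA. How the knockout was made, how many stem cell clones were used and whether tumours were pooled is not stated in the sources at hand.

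Nodal is a secreted ligand of the TGF-beta family that signals through activin receptors, with Tdgf1 (Cripto) as a co-receptor, to Smad2 and Smad3. These act with Foxh1 and with Eomes to switch on Nodal itself, its inhibitors and the genes of the primitive streak and organizer. In the mouse gastrula this loop patterns the anterior visceral endoderm and directs epiblast cells to mesendoderm, from which prechordal plate and definitive endoderm arise. Snai1 is a zinc-finger repressor of transcription that acts during gastrulation and binds E-box sequences, the preferred one reading CAGGTG.

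Promoter sequence was available from RefSeq (build GRCm38.p6) for 6 of the 10 genes: Nodal, Tdgf1, Cer1, Eomes, Gsc and Lhx1. Each window runs from 250 bases before to 50 bases after the gene's start. The letters CAGGTG, read on both strands, occurred in 2 of the 6 windows, against 20.2% of all 32851 promoter windows of that length. These were the windows of Cer1, with 2 copies beginning 72 and 61 bases before the start, and of Tdgf1, with 1 copy beginning 1 base before it. Both are printed because they hold the motif while their genes differed in opposite ways between the tissues. The Nodal window is printed beside them as that of the ligand, without the motif. Capitals mark CAGGTG, which reads CACCTG on the other strand.
Cer1, chr4:82885102-82885401, minus strand: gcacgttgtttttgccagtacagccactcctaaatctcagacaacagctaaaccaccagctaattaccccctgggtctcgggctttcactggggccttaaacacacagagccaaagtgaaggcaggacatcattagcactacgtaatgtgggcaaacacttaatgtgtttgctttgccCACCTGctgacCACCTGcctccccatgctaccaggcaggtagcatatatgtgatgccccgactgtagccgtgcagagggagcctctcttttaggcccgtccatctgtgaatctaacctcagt
Tdgf1, chr9:110946109-110946408, minus strand: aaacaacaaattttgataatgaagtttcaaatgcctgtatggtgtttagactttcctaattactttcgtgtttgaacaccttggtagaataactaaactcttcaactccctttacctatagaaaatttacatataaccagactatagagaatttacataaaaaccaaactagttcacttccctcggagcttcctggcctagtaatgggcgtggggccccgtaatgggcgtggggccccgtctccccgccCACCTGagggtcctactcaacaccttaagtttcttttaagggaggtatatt
Nodal, chr10:61417722-61418021, plus strand: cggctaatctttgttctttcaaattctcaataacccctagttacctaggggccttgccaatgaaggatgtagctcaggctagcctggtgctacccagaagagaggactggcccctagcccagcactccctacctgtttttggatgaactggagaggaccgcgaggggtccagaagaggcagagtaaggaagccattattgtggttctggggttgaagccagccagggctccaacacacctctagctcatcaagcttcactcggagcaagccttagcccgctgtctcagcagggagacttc
The short Smad-binding letters CAGAC, which read GTCTG on the other strand, were found once each in the windows of Tdgf1, Cer1 and Lhx1, which is 3 of 6, against 49.6% of all windows. The Foxh1 letters AATCCACA, which read TGTGGATT on the other strand, were in 0 of the 6 and in 0.855% of all windows. A match describes the letters of the window and shows no binding.

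Values are log2 expression as deposited, 1 array per group. No difference below has a replicate check, and no test was possible. As a floor, the median of all non-control probe sets was taken on every array. It was 4.73 and 4.71 in knockout and control embryoid bodies and 5.04 and 5.08 in knockout and control teratomas. A value below its floor was raised to the floor before a difference was taken, so with 1 side below, the fold is a lower bound and is given as "at least". The difference called here is 2-fold, or 1 on the log2 scale. Probe sets of the same gene varied around each other by 0.29 (embryoid bodies) and 0.28 (teratomas), a pooled SD of their log2 differences that covers neither cultures nor tumours. Snai1 itself, read by 1 probe set, was 3.45 in knockout and 4.78 in control embryoid bodies, and 3.44 and 3.59 in knockout and control teratomas. Only the control embryoid body value exceeds its floor, and it does so barely. The size of a Snai1 difference is thus not measured in either tissue. Whether that probe set lies in the deleted part is not given. The 3' minus 5' signal of Gapdh, a measure of RNA integrity, was 0.10 and 0.17 in knockout and control embryoid bodies and 0.40 and 0.65 in knockout and control teratomas. That of Actb was 0.31 and 0.38 in knockout and control embryoid bodies and 0.85 and 1.03 in knockout and control teratomas.

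In day 5 embryoid bodies, 7 of the 10 genes were higher in the knockout by 2-fold or more, and none was lower by that much. They were Nodal, Lefty1, Cer1, Eomes, Gsc, Lhx1 and Mixl1. Among all 12282 genes measured in this comparison, 2.18% were higher and 3.98% lower by 2-fold or more. The members were chosen with earlier results of these data known, so their count is a description and no separate evidence. The median log2 difference was 1.18 over the 10 genes and 0.026 over all genes measured. Of the 15 probe sets 11 were higher, and both probe sets were higher for 4 of the 5 genes that have a pair of them. With the floor raised to the 65th percentile of each array, 4 of the 10 genes, Nodal, Cer1, Eomes and Lhx1, reached 2-fold. The share of all genes under that floor was not counted. In bulk RNA, more cells of a type and more RNA per cell cannot be told apart.

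**Figure D1:**
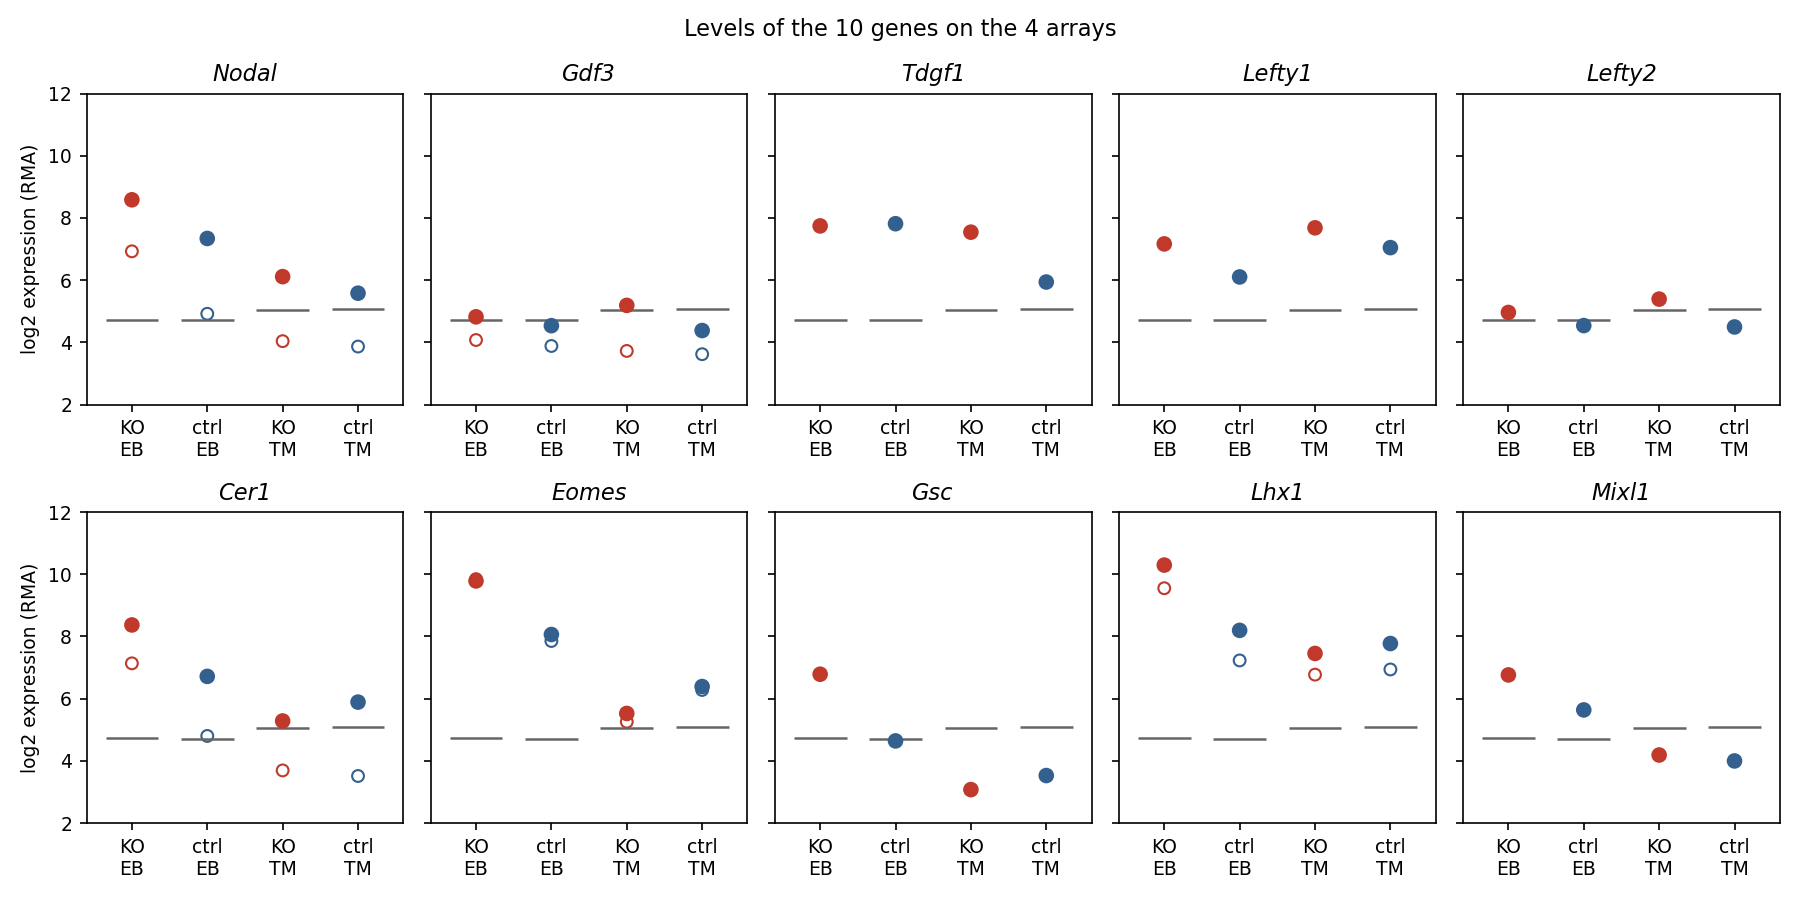
Log2 expression (RMA) of each gene in knockout (red) and control (blue) embryoid bodies (EB) and teratomas (TM), 1 array each; filled points are the probe set with the highest mean, open points the other probe set, and grey lines each array's floor. Gsc is above the floor only in knockout embryoid bodies, at 6.79, and Tdgf1 is low only in the control teratoma, at 5.94.

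Among the ligands, Nodal had 8.58 in knockout and 7.34 in control embryoid bodies, a 2.37-fold difference. Its other probe set read 6.93 in the knockout and 4.92 in the control, 4.02-fold higher. Both Nodal probe sets were thus above the floor on each embryoid body array, with a larger difference in the dimmer one. Gdf3, a ligand of the same family that also uses Tdgf1, lay near the floor, at 4.82 in the knockout and 4.54 in the control. That difference is at least 1.08-fold, and the other Gdf3 probe set lay below the floor on both arrays. The co-receptor gene Tdgf1 was nearly level, at 7.74 in knockout and 7.82 in control embryoid bodies, a log2 difference of -0.071. Nodal thus passed 2-fold in embryoid bodies and Tdgf1 did not.

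Among the inhibitors, Cer1, a secreted antagonist that binds Nodal and BMP ligands, had 8.37 in knockout and 6.72 in control embryoid bodies, 3.14-fold higher. Its other probe set had 7.14 in the knockout and 4.80 in the control, 5.04-fold higher. Lefty1, which blocks Nodal and its co-receptor and marks the anterior visceral endoderm, had 7.17 in the knockout and 6.10 in the control, 2.09-fold higher. That is only just past the threshold. Lefty2, the related inhibitor of nascent mesoderm, had 4.96 in the knockout and 4.54 in the control. The control value lies below the floor, so Lefty2 was at least 1.19-fold higher and did not reach 2-fold.

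All 4 transcription factor genes were higher in knockout embryoid bodies, with a median log2 difference of 1.90. Lhx1, a LIM homeobox gene needed for head formation, had 10.29 in the knockout and 8.20 in the control, 4.28-fold higher. Its other probe set had 9.55 in the knockout and 7.23 in the control, 4.99-fold higher. Eomes, a T-box gene that directs definitive endoderm, had 9.78 in the knockout and 8.06 in the control, 3.30-fold higher. The other Eomes probe set gave 9.84 and 7.85 in the knockout and control, a 3.97-fold difference. Gsc, a homeobox repressor of the organizer and prechordal plate, had 6.79 in the knockout and 4.64 in the control, which is below the floor. Gsc was thus at least 4.22-fold higher. Mixl1, a homeobox gene of the primitive streak, had 6.76 in the knockout and 5.64 in the control, 2.18-fold higher.

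**Figure D2:**
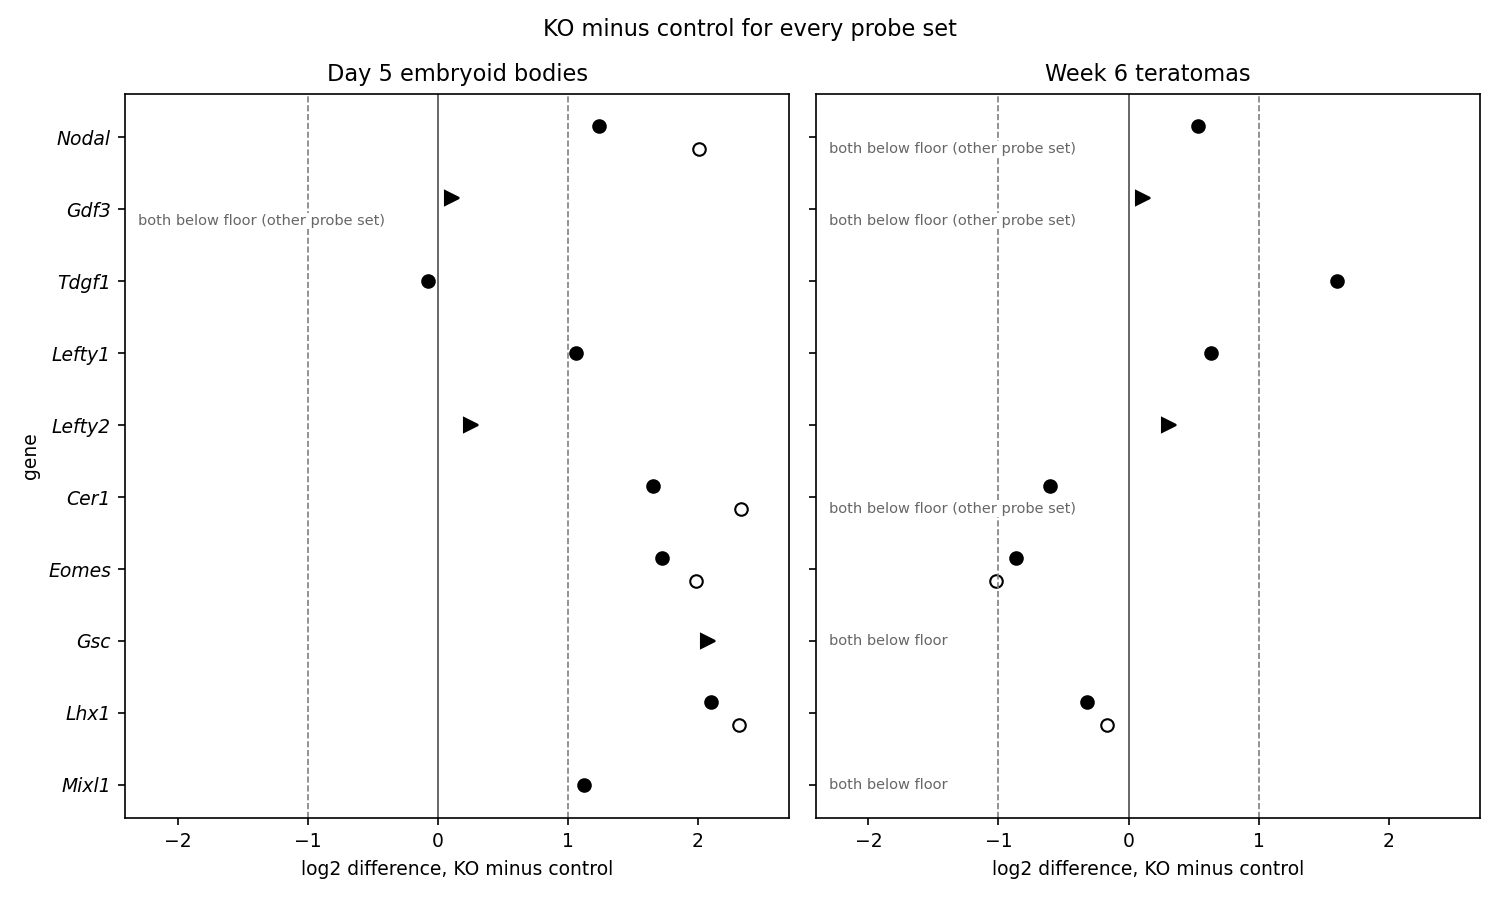
Log2 difference, knockout minus control, of every probe set in embryoid bodies (left) and teratomas (right); filled symbols are the probe set with the highest mean, open ones the other, triangles bounds where 1 array lies below its floor, and dashed lines 2-fold. In embryoid bodies the points run up to 2.33, and in teratomas only Tdgf1, at 1.60, lies beyond the upper line.

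In week 6 teratomas 1 of the 10 genes, Tdgf1, was 2-fold or more higher in the knockout and 0 were 2-fold or more lower. The background over 12197 measured genes was 3.25% higher and 1.07% lower. The median log2 difference over the 8 genes above the floor on at least 1 array was 0.21, against 0.065 over all measured genes. Tdgf1 had 7.54 in the knockout and 5.94 in the control teratoma, 3.04-fold higher, and rests on 1 probe set. Nodal had 6.11 in the knockout and 5.58 in the control, 1.45-fold higher, while its other probe set lay below the floor on both. Lefty1 had 7.68 in the knockout and 7.05 in the control, 1.55-fold higher. In the knockout teratoma alone did Gdf3 and Lefty2 exceed the floor, at 5.19 and 5.39, against 4.38 and 4.50 in the control. Their bounds, at least 1.08-fold for Gdf3 and at least 1.24-fold for Lefty2, are small because the floor lies close.

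The transcription factor genes and Cer1 were not higher in the knockout teratoma. Eomes had 5.53 in the knockout and 6.39 in the control, a log2 difference of -0.86, and its other probe set gave 5.26 and 6.28 in knockout and control, a difference of -1.02. Eomes therefore lies on either side of the 2-fold threshold depending on the probe set. Cer1 had 5.28 in the knockout and 5.89 in the control, a log2 difference of -0.61, with its other probe set below the floor on both arrays. Lhx1 was nearly level, at 7.45 in the knockout and 7.77 in the control, and its other probe set differed by -0.17. Gsc and Mixl1 lay below the floor in both teratomas, so no difference is given for them.

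Levels also differed between the tissues within a genotype. The tissues were extracted by different methods, Trizol for teratomas and columns for embryoid bodies, so tissue and extraction cannot be told apart. In knockout cells 6 of the 10 genes were 2-fold or more lower in the teratoma than in the embryoid body and 0 were higher. They were Nodal, Cer1, Eomes, Gsc, Lhx1 and Mixl1. Over all 12936 genes measured there, 19.8% were lower and 19.8% higher. In control cells 3 of 7 measured genes, Nodal, Tdgf1 and Eomes, were 2-fold or more lower in the teratoma and 0 higher, beside 19.0% lower and 16.2% higher of 12956 genes. Eomes was 19.1-fold lower in the teratoma than in the embryoid body in knockout cells, and 3.19-fold lower in control cells. Cer1 differed by -3.09 in knockout cells and by -0.83 in control cells on the log2 scale. Lhx1 was 7.16-fold lower in knockout and 1.34-fold lower in control cells. Mixl1 was at least 3.30-fold lower in knockout and at least 1.47-fold lower in control cells, with its teratoma values below the floor. Tdgf1 showed the other order, with a log2 difference of -0.20 in knockout and -1.87 in control cells. Lefty1 was the gene with a higher value in the teratoma in both genotypes, by 0.52 in knockout and 0.94 in control cells, which is under 2-fold. The comparisons of tissues use the same arrays as those of genotypes, so these values restate the levels above.

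**Figure D3:**
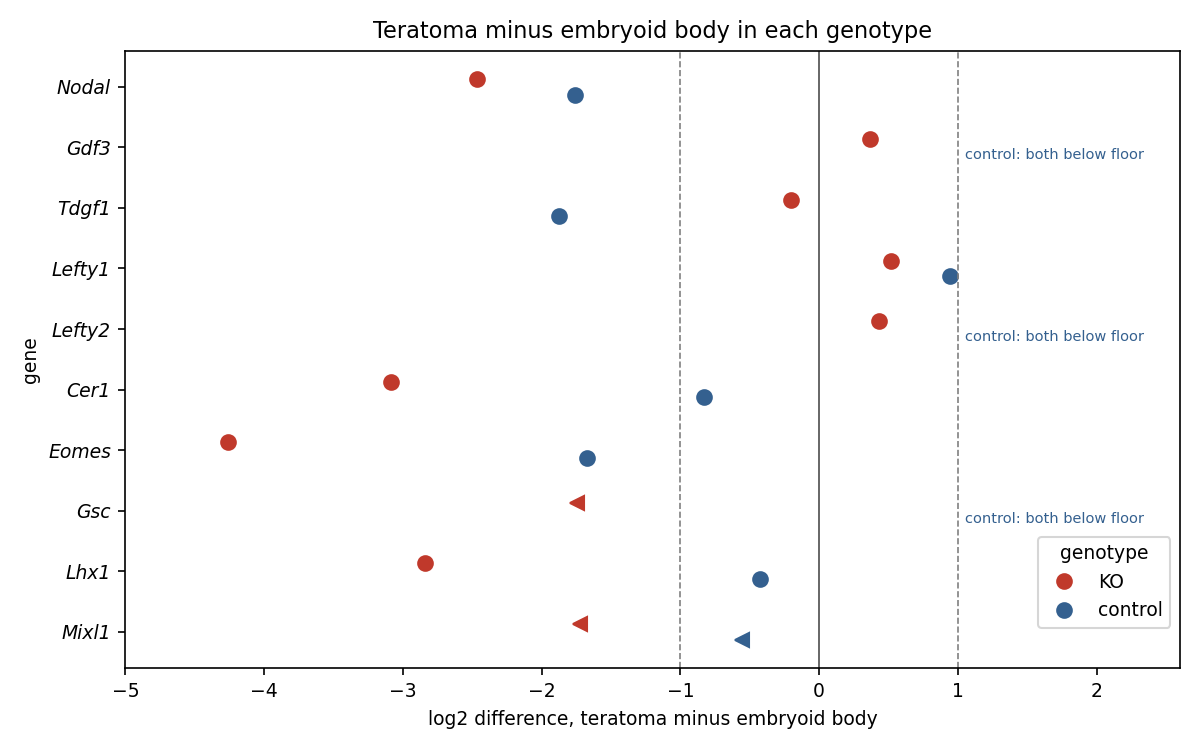
Log2 difference, teratoma minus embryoid body, of each gene's probe set with the highest mean in knockout (red) and control (blue) cells; triangles are bounds and dashed lines 2-fold. In knockout cells the transcription factor genes and Cer1 lie at -1.72 or lower, and Lefty1 lies right of 0 in both genotypes.

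The other genes of the pathway were mostly level between genotypes in embryoid bodies. Of 25 on the array, 23 were measured, of which 3 were 2-fold or more higher in the knockout and 0 lower. Their median log2 difference was -0.030, and 2 lay below the floor on both arrays. The 3 pathway genes higher were Foxh1, Cfc1 and Tgif1. Over all 12282 genes measured, 2.18% were higher and 3.98% lower by 2-fold or more. Foxh1, the DNA-binding partner of Smad2 in the Nodal loop, had 9.74 in the knockout and 8.49 in the control, 2.38-fold higher. Its other probe sets differed by 0.99 and 1.12. Cfc1, a co-receptor gene related to Tdgf1, had 9.28 in the knockout and 8.23 in the control, 2.08-fold higher. Tgif1, a homeobox corepressor that limits Smad2 activity, had 9.91 in the knockout and 8.85 in the control, also 2.08-fold higher. Tgif1 has only a probe set with the suffix _a_at. Probe sets with the suffix _x_at, _s_at or _a_at are called shared-sequence here by suffix alone. Whether their sequence is shared with other genes was not checked, least of all for _a_at. Without such probe sets, 2 pathway genes were higher.

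Receptor and Smad genes were below 2-fold. The type II receptor gene Acvr2b differed by 0.58, the type I receptor gene Acvr1b by -0.14, Smad2 by -0.15, Smad3 by -0.23 and Smad4 by -0.19. Furin, the gene of a protease that cuts the Nodal precursor, differed by 0.31. Among feedback genes Skil, a Smad corepressor, differed by 0.55 and Smad7, an inhibitory Smad, by -0.09. Follistatin, Fst, which binds activin, differed by -0.61. In teratomas 0 of 23 measured pathway genes were 2-fold or more higher and 0 lower, with a median of -0.18. Over all genes measured in teratomas, 3.25% were higher and 1.07% lower, so 0 of 23 lies near the background. Foxh1 was at 5.30 in the knockout and 5.26 in the control teratoma, just above the floor. Fst came closest to the threshold there, at 6.53 in the knockout and 7.50 in the control. The other Fst probe set differed by -0.52 in teratomas.

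Other organizer and mesendoderm genes were, like most members, mainly higher in knockout embryoid bodies. Of 14 on the array 12 were measured, of which 9 were 2-fold or more higher in the knockout and 1 lower, with a median log2 difference of 1.44. Over all 12282 genes measured, 2.18% were higher and 3.98% lower by 2-fold or more. The organizer list was chosen with earlier results of these data known, so its count describes it and adds no separate evidence. Otx2, a head homeobox gene and partner of Lhx1, had 10.34 in the knockout and 8.18 in the control, 4.46-fold higher. Hesx1, a repressor gene of the anterior endoderm and forebrain, had 7.80 in the knockout and 5.53 in the control, 4.85-fold higher. Cxcr4, a chemokine receptor gene of definitive endoderm, had 9.75 in the knockout and 7.39 in the control, 5.15-fold higher. The other 6 were the growth factor gene Fgf8 at 2.09, the secreted Wnt inhibitor genes Dkk1 and Frzb, each at 1.47, and the transcription factor genes Hhex at 1.41, Sox17 at 1.23 and Mesp1 at 1.07. Without shared-sequence probe sets, which are the only ones for Otx2, Fgf8 and Sox17, the count was 6 higher.

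Foxa2, a forkhead gene of the node and endoderm, was just under 2-fold, at 11.00 in the knockout and 10.02 in the control. Chrd, a BMP antagonist gene of the organizer, differed by 0.62. Shh, the signal of the notochord and floor plate, was the 1 gene lower, at 6.27 in the knockout and 7.30 in the control. Nog and Wnt3 lay below the floor on both embryoid body arrays. In teratomas, 2 of 9 measured genes were 2-fold or more lower in the knockout and 0 higher. Over all genes measured in teratomas, 1.07% were lower and 3.25% higher. Sox17 had 5.69 in the knockout and 7.11 in the control, and Dkk1 had 5.42 in the knockout and 6.80 in the control. Both Sox17 probe sets are shared-sequence ones, and the other differed by -0.79.

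**Figure D4:**
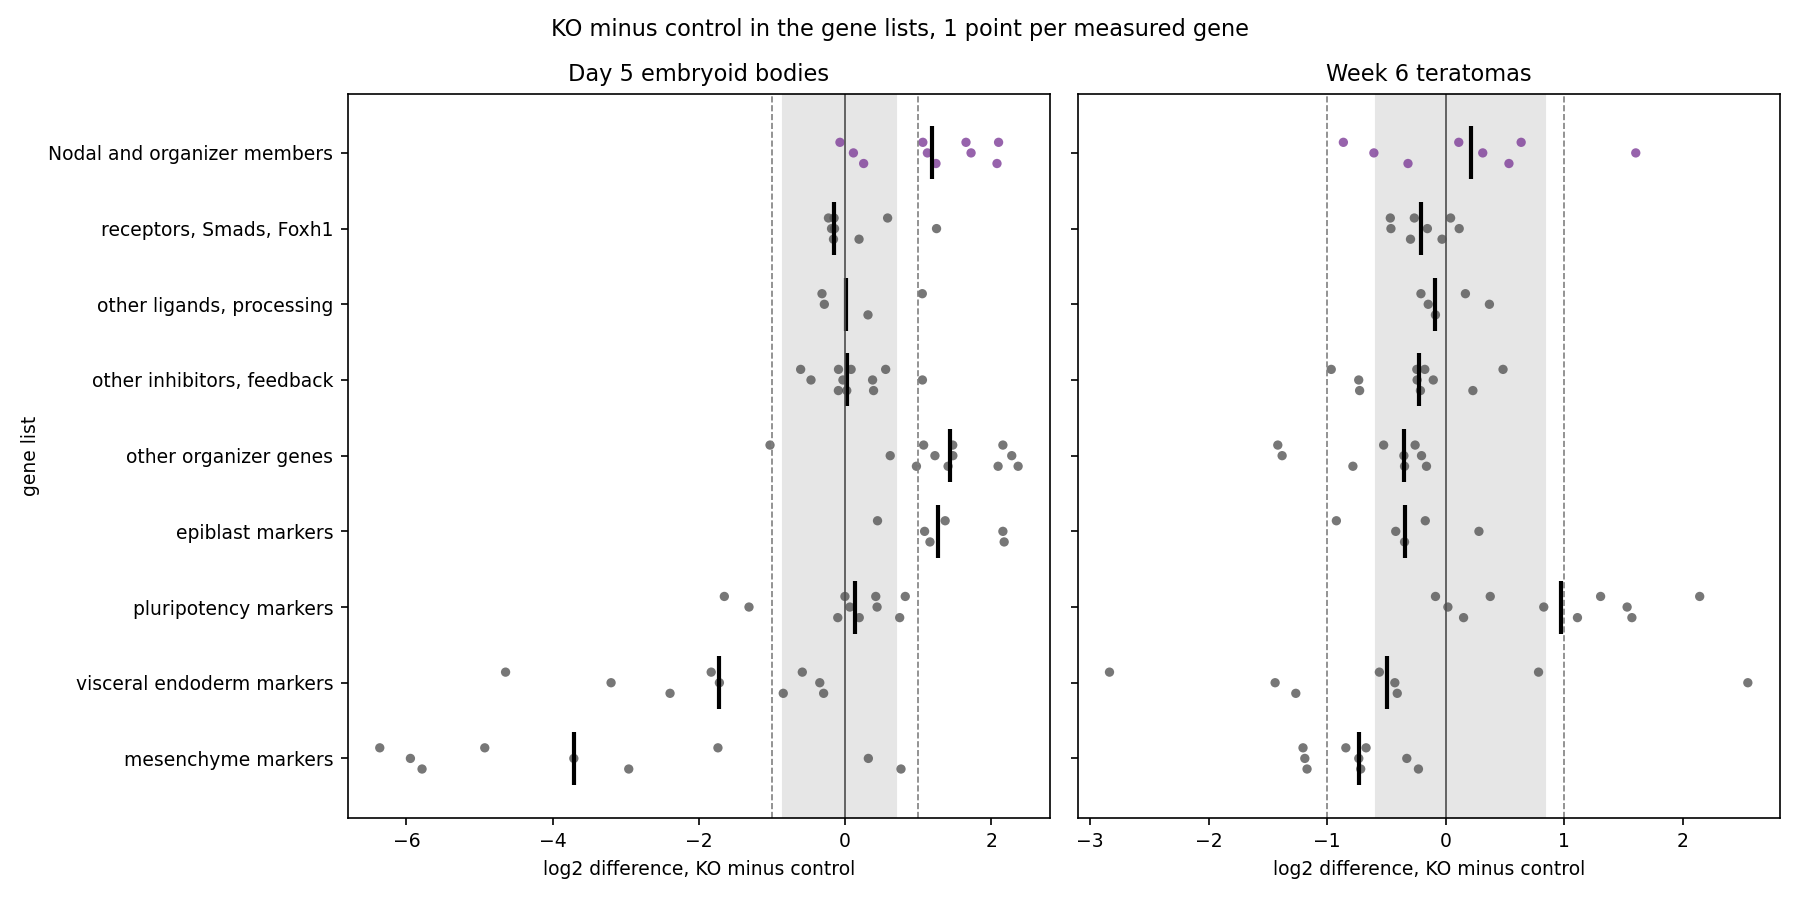
Log2 difference, knockout minus control, of each measured gene in the gene lists for embryoid bodies (left) and teratomas (right, narrower axis); black bars are list medians, grey bands the central 90% of all measured genes and dashed lines 2-fold. In embryoid bodies the members (median 1.18) and other organizer genes (median 1.44) lie mostly right of the band, and receptor and Smad genes mostly within it.

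Markers of cell types that express these genes were read beside them. In embryoid bodies, 2.18% of all measured genes were higher and 3.98% lower in the knockout by 2-fold or more. Cer1, Lefty1, Lhx1, Eomes, Otx2 and Hhex are also genes of the anterior visceral endoderm. Markers of visceral endoderm were lower in knockout embryoid bodies, with 5 of 9 lower by 2-fold or more, 0 higher and a median of -1.72. Their mean log2 level was 7.52 in the knockout and 9.28 in the control, and Afp, the alpha-fetoprotein gene, stood at 5.20 in the knockout and 9.84 in the control. Epiblast markers had 5 of 6 higher and 0 lower, with a mean level of 8.66 in the knockout and 7.26 in the control. The other probe set of Sox3 differed by only 0.11, and that of Pou3f1, the marker not called, by 1.34. Fgf5, a growth factor gene of primed epiblast, was 4.51-fold higher and the methyltransferase gene Dnmt3b 2.12-fold higher. Pluripotency markers had 0 of 10 higher and 2 lower, Klf4 at -1.31 and Tfcp2l1 at -1.65, with mean levels of 7.71 in the knockout and 7.75 in the control. Mesenchyme markers had 7 of 9 lower, with mean levels of 6.77 in the knockout and 10.14 in the control, whereas Prrx1 and Twist1 differed by 0.76 and 0.32. The part of these marker differences in the members' differences was not tested.

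In teratomas, 3.25% of all measured genes were higher and 1.07% lower in the knockout by 2-fold or more. Pluripotency markers had 5 of 10 higher in the knockout teratoma and 0 lower, with mean levels of 7.90 in the knockout and 6.93 in the control. Pou5f1, a core pluripotency factor gene, had 7.52 in the knockout and 6.22 in the control, and Nanog had 7.53 in the knockout and 6.00 in the control. These moved with Tdgf1, which undifferentiated stem cells also express, and their part in its difference was not tested. Visceral endoderm markers had 3 of 8 measured lower and 1 higher in the knockout teratoma, with a median of -0.50 and mean levels of 6.25 in the knockout and 6.85 in the control. Afp was 7.14-fold, Apoa1 2.71-fold and Apoa4 2.40-fold lower, and Ttr was 5.85-fold higher. Mesenchyme markers had 3 of 9 lower and 0 higher, with all 9 differences below 0 and mean levels of 9.58 in the knockout and 10.37 in the control. Both lists moved with the lower values of Cer1, Eomes, Sox17 and Dkk1 there, and their part in those was not tested. Eomes is also a gene of T and NK cells and of cortical progenitors. All 7 T and NK cell markers on the array lay below the floor on both teratoma arrays. Of 6 cortical progenitor markers, Neurog2, Neurod1 and Pax6 were above the floor in both teratomas and Emx1, Emx2 and Tbr1 were below it. Neurog2, a proneural factor gene, had 5.75 in the knockout and 7.20 in the control teratoma, Neurod1 differed by -0.42 and Pax6 by -0.17. The list's mean level was 4.79 in the knockout and 5.26 in the control, and its part in the Eomes difference was not tested. Lhx1 is also a gene of the developing kidney, with 5 markers on the array. Pax8, Wt1, Umod and Nphs1 lay below the floor on all 4 arrays. Six2 had 7.89 in knockout and 7.22 in control embryoid bodies, and 5.02, below the floor, in the knockout teratoma, against 5.54 in the control teratoma. The part of these markers in the Lhx1 levels was not tested.

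Genes with a profile like that of Nodal were sought by Euclidean distance over the 4 centred log2 values, among 13291 genes. Values below an array's floor were raised to it before centring. The 5 nearest were Rab38 at 0.23, Tgif1 at 0.25, Slc16a3 at 0.34, Ptk2b at 0.37 and Tyro3 at 0.37. Rab38 had 9.50 and 8.08 in knockout and control embryoid bodies and 7.17 and 6.50 in knockout and control teratomas. Of the other members Cer1 came nearest to Nodal, at 0.87 and rank 234, followed by Lhx1 at 0.98 and rank 448. Nearest to the mean of all members were Relt at 0.14, Pim2 at 0.15, Sall1 at 0.15, Kcnj5 at 0.16 and Chst7 at 0.17. Over 4 arrays such likeness is a description of the shape only.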

How the data were processed

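RNA of 4 samples was measured on Affymetrix mouse arrays, from 250 ng of total RNA each, amplified and labelled with biotin, per the labels' protocols. The deposited values are log2 expression, 1 value per probe set and array, which the authors made with affy and RMA (background correction, quantile normalization and probe set summary), per the submitters' processing notes. Versions, the chip definition and joint normalization of all 4 arrays are not stated in the sources at hand, and no scanner files were used. The table held 45101 probe sets, of which 64 were controls left out.

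Genes were named from the platform annotation, leaving out 932 probe sets that name several genes. A gene is represented by its brightest probe set, judged by the mean of the 4 arrays. Of the list genes, 7 were not analysed here. Computed from these values were floors, differences of log2 values, counts at 2-fold, list medians and distances, in Python 3.11.15 with numpy 2.4.6 and pandas 2.3.3, and the code was tested on simulated data. The number of arrays limits the precision. Members and lists were chosen with earlier results of these data known. Named were all members, list genes at 2-fold or more or chosen for their role, and the 5 genes nearest in profile. The floor percentile, probe set rule, scaling and threshold were varied.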

Additional observations from a re-analysis of the deposited data

Results flagged for a closer look

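Among the members and the list genes past 2-fold in at least 1 tissue, 18 genes differed between knockout and control in opposite directions in embryoid bodies and in teratomas. With 1 array per group the difference between the tissues was not tested, and several of the values lie close to 0. The share of all genes with opposite signs was not counted, so the 18 is a description without a background. All values are log2 differences, knockout minus control.

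Among the members, Tdgf1 differed by -0.071 in embryoid bodies and 1.60 in teratomas, Cer1 by 1.65 in embryoid bodies and -0.61 in teratomas, Eomes by 1.72 in embryoid bodies and -0.86 in teratomas and Lhx1 by 2.10 in embryoid bodies and -0.32 in teratomas. Cer1, Eomes and Lhx1 were higher in knockout embryoid bodies and not in the knockout teratoma, and Tdgf1 was the reverse.

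Other pathway and organizer genes had the same order of signs. Cfc1 differed by 1.06 in embryoid bodies and -0.15 in teratomas and Otx2 by 2.16 in embryoid bodies and -0.35 in teratomas. Hhex differed by 1.41 in embryoid bodies and -0.78 in teratomas and Dkk1 by 1.47 in embryoid bodies and -1.38 in teratomas. Sox17 differed by 1.23 in embryoid bodies and -1.42 in teratomas and Frzb by 1.47 in embryoid bodies and -0.35 in teratomas. Cxcr4 differed by 2.37 in embryoid bodies and -0.20 in teratomas.

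Of the marker genes, 3 of pluripotent cells, 3 of epiblast and 1 of visceral endoderm met the same condition. Klf4 differed by -1.31 in embryoid bodies and 0.018 in teratomas and Tfcp2l1 by -1.65 in embryoid bodies and 0.15 in teratomas. Dppa5a differed by -0.10 in embryoid bodies and 1.57 in teratomas and Dnmt3b by 1.09 in embryoid bodies and -0.42 in teratomas. Zic2 differed by 1.37 in embryoid bodies and -0.92 in teratomas and Sox3 by 1.16 in embryoid bodies and -0.17 in teratomas. The other Sox3 probe set differed by only 0.11 in embryoid bodies. Ttr differed by -1.72 in embryoid bodies and 2.55 in teratomas. Ttr, the transthyretin gene, is expressed by choroid plexus as well as by visceral endoderm. It was the only one of 8 measured visceral endoderm markers 2-fold or more higher in the knockout teratoma, while Afp, Apoa1 and Apoa4 were lower and the list's median was -0.50.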

How the results depend on the processing

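Of 116 values of single members under the alternatives, 106 stayed within the spread between probe sets, 10 did not, and 0 called differences changed sign. Many of the 116 could not move. No member has a shared-sequence probe set, so leaving those out changed no member value. A lower or absent floor does not alter differences between values above the floor, and averaging does not alter genes with 1 probe set. The 106 is thus no measure of stability. The 116 leave out members that fell below the floor on both arrays under an alternative. With the floor at the 65th percentile, these were Nodal, Gdf3, Lefty2, Cer1 and Eomes in teratomas, and Gdf3 and Lefty2 in embryoid bodies. With averaged probe sets, they were Gdf3 in both tissues and Cer1 in teratomas. The count of members higher in knockout embryoid bodies was 7 throughout, except 4 with the floor at the 65th percentile, where Gsc, Mixl1 and Lefty1 had bounds of 0.58, 0.56 and 0.96, under 2-fold, and 4 at a 3-fold threshold. In teratomas a 1.5-fold threshold gave 2 members higher and 2 lower. Averaging probe sets gave Nodal 1.62 in embryoid bodies and -0.003 in teratomas. For other pathway genes, 0 were higher in embryoid bodies at 3-fold, and 1 was lower at 1.5-fold. In teratomas 3 were lower at 1.5-fold and 1 after quantile normalization. For other organizer genes in embryoid bodies, 4 were higher at 3-fold, and 0 lower at 3-fold or with averaged probe sets. Without shared-sequence probe sets the embryoid body counts were 6 organizer and 2 pathway genes higher. In teratomas 1 organizer gene was lower with averaged probe sets or without shared-sequence ones, and 0 with the floor at the 65th percentile or at 3-fold. Higher floors and thresholds call fewer genes by construction, and other causes were not tested. The shares of all genes called under these alternatives were not counted, so these counts have no background beside them. No paired analysis was possible because each group has 1 array. Values near the floor, those of Gdf3 and Lefty2 among them, limit what a difference can show.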
